A study of Mus musculus with 12 samples.

Results

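The interaction of radiotherapy and a FAP-targeted 4-1BB agonist was examined in mouse breast tumours: the question was for which genes the change with radiotherapy differed between tumours that also received the agonist and tumours that did not. The interaction was taken for each gene as the combined group minus the agonist group, less the radiotherapy group minus the untreated group, on the log2 scale. All genes that passed a filter on low counts were included, which left 17757 of 56884 genes, and none was chosen by its values. Of these, 27 passed the test of the interaction. In 21 of the 27 the radiotherapy group was the one that stood apart from the rest, and with edgeR and all libraries no gene met a rule for synergy by which the combined group had to differ from each of the other 3 groups (63 genes did with DESeq2 and 2 with limma-voom).

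The tumours came from TS/A mammary carcinoma cells combined with cancer-associated fibroblasts (TS/A+CAF), labelled as wild type. The 4 groups had 3 libraries each: "Radiotherapy and muFAP-4-1BBL" (combined), "Radiotherapy" (RT), "muFAP-4-1BBL" (agonist) and "None" (untreated). The labels give no dose, fraction, interval after treatment or vehicle, and do not tie a library to an animal, so the tests take the scatter of these libraries as error, and part of it may be technical. Whole-tumour polyadenylated RNA was sequenced, so fewer cells of a type and less RNA per cell cannot be told apart. Total counts in genes were 34076477 to 42067481 per library.

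Ionising radiation damages DNA, which activates p53, and it can release nucleic acids that switch on type I interferon genes. 4-1BB (gene Tnfrsf9) is a costimulatory receptor of the TNF receptor family, known on activated T cells and NK cells, and its ligand is 4-1BBL (Tnfsf9). Fibroblast activation protein (Fap) is a surface protease of activated fibroblasts, and a ligand directed to it is meant to act within the tumour. An interaction on the log2 scale says that the joint change is not the product of the single changes. It can arise from a level that only the combination reaches, from a change with radiotherapy that the combination lacks, or from single changes that do not add up, and the level in every group is needed to tell these apart.

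Fibroblast markers were abundant in every library (Col1a1, a fibrillar collagen chain, 1896 to 3354 CPM, counts scaled to a common library size), as were those of macrophages (C1qa, a complement component, 458 to 1518 CPM). The carcinoma keratin Krt8 was at 231 to 437 CPM while Epcam, an epithelial adhesion molecule, was at 0.0824 to 8.18 CPM. T cell markers were low (Cd3e, a chain of the T cell receptor complex, 3.37 to 11.6 CPM). Skeletal muscle genes set the RT libraries apart: the 22 genes of a muscle list took 0.799%, 0.769% and 1.78% of counts in RT libraries, against 0.140%, 0.140% and 0.0838% in combined, 0.0676%, 0.0268% and 0.285% in agonist and 0.0960%, 0.101% and 0.0256% in untreated libraries. Its defining members were detected throughout, with Acta1, the actin of muscle fibres, at 10.98 to 2615 CPM, so no group was free of muscle transcripts.

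The promoters of 3 genes past the interaction test are shown because they represent different patterns described later, each as the 250 bases before the RefSeq start on GRCm38.p6, read 5′ to 3′ on the gene's strand. Cyp26b1, which degrades retinoic acid, was highest in the combined group and is given at chr6:84593811-84594060 on the minus strand. Igfn1, a protein of muscle fibres, was high in the RT group and is given at chr1:136006343-136006592 on the minus strand. Jaml, a junctional adhesion molecule of leukocytes, was lower in both single-treatment groups and is given at chr9:45078933-45079182 on the plus strand. Capitals mark an E-box, CAGCTG, in Cyp26b1 and Igfn1, and an interferon-stimulated response element core (GAAA, any 2 bases, GAAA, here on the opposite strand) in Jaml.
Cyp26b1: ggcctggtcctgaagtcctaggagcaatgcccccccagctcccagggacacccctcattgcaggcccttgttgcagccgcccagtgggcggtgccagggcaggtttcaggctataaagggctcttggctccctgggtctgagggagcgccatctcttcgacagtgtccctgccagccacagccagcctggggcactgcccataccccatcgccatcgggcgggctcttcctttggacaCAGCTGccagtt
Igfn1: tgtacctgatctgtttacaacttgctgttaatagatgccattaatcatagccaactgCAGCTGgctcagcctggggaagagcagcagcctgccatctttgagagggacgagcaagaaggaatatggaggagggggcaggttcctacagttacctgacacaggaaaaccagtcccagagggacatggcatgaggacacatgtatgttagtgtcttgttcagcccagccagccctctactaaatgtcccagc
Jaml: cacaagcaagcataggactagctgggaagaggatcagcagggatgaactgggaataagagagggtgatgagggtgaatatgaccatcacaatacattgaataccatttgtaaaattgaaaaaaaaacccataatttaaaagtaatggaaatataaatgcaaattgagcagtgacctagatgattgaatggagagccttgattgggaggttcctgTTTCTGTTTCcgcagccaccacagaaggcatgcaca
A promoter entry was matched for 23 of the 27 genes. The E-box was in 4 of these 23 windows (17.4%) and in 13% of all 32851 windows of that length. The response element core was in 2 of 23 (8.7%) and in 2.98% of all windows, and the AP-1 motif TGANTCA was in none of the 23 and in 6.75% of all windows. The 3 motifs were searched on both strands, and the E-box reads the same on both.

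Few genes passed the test for a departure from the product of the single changes. By the quasi-likelihood test of edgeR, adjusted over all genes (Benjamini-Hochberg, threshold 0.05), 27 of 17757 (0.152%) had an interaction, 5 above 0 (0.0282%) and 22 below 0 (0.124%). Before adjustment, 2497 genes (14.1%) had a p under 0.05, 1102 above 0 and 1395 below 0, so the 27 are the small end of a wider spread of small p-values. For comparison, RT and untreated tumours differed in 1709 genes (9.62%) and combined and agonist tumours in 168 (0.946%). Agonist and untreated tumours differed in 1 gene (0.00563%), combined and RT tumours in 1022 (5.76%), combined and untreated in 1404 (7.91%), and RT and agonist in 623 (3.51%). The number of genes called rested on the tool and on single libraries. DESeq2 called 639 genes, among them all 27, and limma-voom called 31, of which 22 were among the 27. Without RT replicate 3, the library with the most muscle RNA, 269 genes were called, 177 above 0 and 92 below 0, so the balance of directions turned. Without agonist replicate 2 there were 104, and without any 1 of the combined libraries there were 0 (1804 to 2250 at an unadjusted p under 0.05). Omitting untreated replicate 2 left 1 gene.

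**Figure D1:**
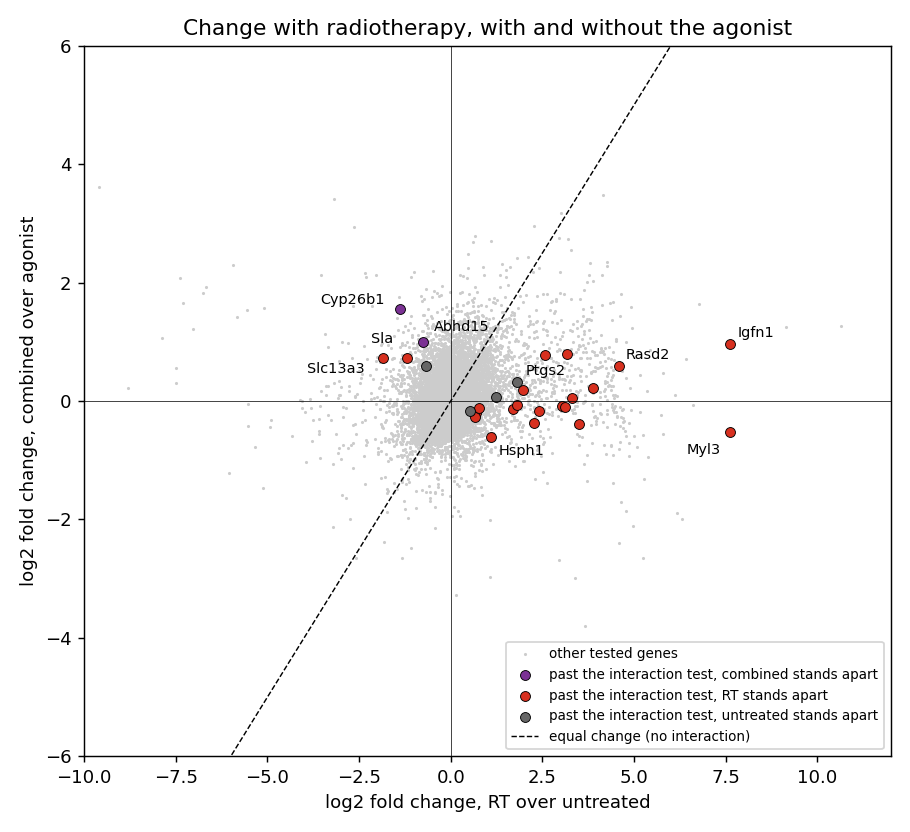
Each point is 1 of 17757 genes, with the log2 fold change of RT over untreated tumours on the x axis and of combined over agonist tumours on the y axis, and coloured points are the 27 genes past the interaction test, by the group that stood apart. Most coloured points lie near 0 on the y axis and far to the right on the x axis, below the dashed line of equal change; Cyp26b1, Abhd15 and Sla lie above it on the left.

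Each called gene was assigned to the group whose mean log2 CPM lay farthest from the mean of the other 3. The RT group stood apart in 21 of the 27 genes (77.8%), the untreated group in 4, the combined group in 2 and the agonist group in 0. Over all tested genes these shares were 35.1% for RT, 23.9% for untreated, 31.1% for combined and 9.93% for agonist, but an interaction test favours genes in which 1 group stands apart, so the shares are not directly comparable. All 3 RT libraries were outside the range of the other 9 in 20 of the 21, all but Sla, whose RT and agonist libraries overlapped. Over all genes the share was 7.75%. The 21 were picked by these same libraries, so their separation was largely set by the choice. A stricter rule asked for RT tumours to differ, by adjusted p, from combined, agonist and untreated tumours alike. It was met by 20 genes (0.113%), 19 with RT higher and 1 lower; without RT replicate 3 it was met by 114, 57 with RT higher and 57 lower. The counterpart rule for synergy asked for combined tumours past the test against each other group in the direction of the interaction. With edgeR 0 genes met it. The rules were not equally strict, since p-values were adjusted within each comparison. Combined and agonist tumours differed in 0.946% of genes and RT and agonist tumours in 3.51%, so a like change passed less readily in the former. At an unadjusted p under 0.05 the synergy rule was met by 399 genes and the stricter rule for RT tumours by 998. The synergy rule was met by 63 with DESeq2, by 6 with no filter on low counts, by 2 with limma-voom and by 75 with edgeR without RT replicate 3. Each of the 27 interactions had the same sign when means were compared as linear CPM, where the expectation is a sum and not a product.

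Several of the RT-high genes are known from muscle, a grouping made after the calls were seen. Mss51, a mitochondrial protein of skeletal muscle (chr14:20532935-20546969 on GRCm39, minus strand), had the smallest p. It was at 1.73, 1.88 and 1.58 CPM in combined, 14.3, 13.4 and 21.3 CPM in RT, 2.39, 1.62 and 1.54 CPM in agonist and 2.08, 2.14 and 1.40 CPM in untreated tumours. The 3 RT libraries were above all 9 others, which overlapped one another, and the interaction was -3.22 ± 0.35 (log2, SE; edgeR adjusted p = 0.0117). The product of the single changes would place the combined group at 16.2 CPM, against a measured mean of 1.73 CPM.

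Structural and sarcomere genes had the same shape. Igfn1 averaged 0.201 CPM in combined, 13.1 CPM in RT, 0.102 CPM in agonist and 0.0632 CPM in untreated tumours, and its interaction was -6.65 ± 0.91 (adjusted p = 0.0307 by edgeR). Myl3, a slow-fibre myosin light chain, averaged 5.95 CPM in RT tumours and was at or below 0.116 CPM in the other 9 libraries, 2 of them at 0, so its fitted interaction of -8.13 ± 1.24 rests on few counts. Tpm1, a tropomyosin that fibroblasts also express, was at 574, 615 and 496 CPM in combined, 1117, 936 and 1105 CPM in RT, 697, 660 and 682 CPM in agonist and 713, 630 and 652 CPM in untreated tumours. RT libraries were again the highest 3, and the Tpm1 interaction was -0.94 ± 0.16 (edgeR adjusted p = 0.0441).

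Others of the RT-high genes are known from muscle metabolism and stress. Hspb6, a small heat shock protein of muscle, averaged 21.1 ± 1.29 CPM in combined, 65.5 ± 13.8 CPM in RT, 23 ± 6.68 CPM in agonist and 20.3 ± 2.93 CPM in untreated tumours (SD, n = 3 each). Tacc2, a microtubule-associated coiled-coil protein, was at 137, 179 and 253 CPM in RT tumours and between 41.3 and 64.0 CPM in the other 9 libraries. Ankrd23, a titin-binding ankyrin protein, Fndc5, the precursor of irisin, Cfl2, the muscle cofilin, Prkab2, a regulatory subunit of AMP-activated kinase, Camk2a, a calcium-dependent kinase, and Pkia, an inhibitor of protein kinase A, also had the RT libraries as their highest 3. Their interactions ran from -3.90 ± 0.62 for Fndc5 to -0.89 ± 0.14 for Cfl2. Prkab2 alone among the RT-high genes did not meet the stricter rule, since RT and agonist tumours differed with an adjusted p of 0.0861.

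Muscle content moved with this pattern, and its part was not tested apart from the following values. Over the 9 libraries outside the RT group, 3 of the 27 genes (Hspb6, Tceal5 and Tacc2) followed the muscle score, the mean log2 CPM of the muscle list, with a Spearman rho over 0.7. Ankrd23 and Pkia were at 0.7 and not over it. The grouping by known function did not match rho. Of the other genes described above as known from muscle, Myl3 was at 0.66, and Fndc5 and Camk2a at 0.60. Igfn1 was at 0.28, Mss51 at 0.12, Cfl2 at 0.07, Tpm1 at -0.17 and Prkab2 at -0.25. Of the RT-high genes described below, Clu was at 0.67, Tspan8 at 0.63, Lrrc30 at 0.57, Rasd2 at 0.55, Kng2 at 0.53 and Hsph1 at -0.23. By the rule of a rho over 0.7, with the 22 list genes added whatever their rho, 625 of all genes (3.52%) were muscle-linked. With that score as a covariate no gene passed the test with edgeR (0 adjusted, 1707 at an unadjusted p under 0.05). The score was 7.78 to 8.93 in RT libraries and at most 6.24 in all others. It thus largely follows the RT group, so this fit cannot tell muscle content from the RT group, and its 0 calls decide nothing. The interactions moved unequally in it: Hspb6 was at -1.15 (adjusted p = 0.182), Tspan8 at -1.97 (0.185), Mss51 at -2.86 (0.152), and Cyp26b1 at 3.24 (0.152). The muscle list itself had no called gene. All 22 of its interactions were below 0, 19 with an unadjusted p under 0.05 (7.86% of all genes were), and its median was -4.34 against 0.00086 over all genes. Pygm, the muscle glycogen phosphorylase, was at 25.3, 27.6 and 14.8 CPM in combined, 217, 186 and 449 CPM in RT, 9.71, 3.38 and 68.9 CPM in agonist and 13.02, 18.5 and 2.77 CPM in untreated tumours. The RT libraries lay above the rest, the agonist and untreated libraries were widely spread, and the adjusted p for Pygm was 0.193.

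The remaining RT-high genes are described together; Tceal5, which followed the muscle score, is among them. Hsph1, a heat shock chaperone of the HSP110 family, was at 78.5, 86.9 and 87.9 CPM in combined, 177, 236 and 188 CPM in RT, 160, 122 and 102 CPM in agonist and 104, 97.0 and 79.8 CPM in untreated tumours. RT was highest and combined lowest by mean, and the Hsph1 interaction was -1.70 ± 0.23 (edgeR adjusted p = 0.0307). Clu, the secreted chaperone clusterin, was at 23.1, 19.8 and 18.8 CPM in combined, 81.0, 59.7 and 57.4 CPM in RT, 22.9, 18.6 and 23.1 CPM in agonist and 24.2, 19.1 and 12.8 CPM in untreated tumours. The other 3 groups overlapped, and the interaction was -1.89 ± 0.29. Tspan8, a tetraspanin of epithelial and tumour cells, was at 11.3, 8.32 and 13.4 CPM in RT tumours and at or below 3.36 CPM in the other 9 libraries. Rasd2, a small GTPase best known from the striatum, Kng2, a kininogen, Tceal5, a transcription elongation factor A-like protein, and Lrrc30, a leucine-rich repeat protein, were at or below 1.38 CPM outside the RT group and between 2.04 and 5.58 CPM within it. With the muscle score as a covariate the interaction was -1.71 for Hsph1, -1.46 for Clu, -1.97 for Tspan8, -3.16 for Rasd2, -1.88 for Kng2, -2.42 for Tceal5 and -2.49 for Lrrc30, none past the test. Without it the last 4 were at -3.99 (Rasd2), -2.39 (Kng2), -3.67 (Tceal5) and -3.25 (Lrrc30), and Tspan8 was at -3.13. Since that fit cannot tell muscle content from the RT group, these shifts do not sort the genes by their tie to muscle.

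**Figure D2:**
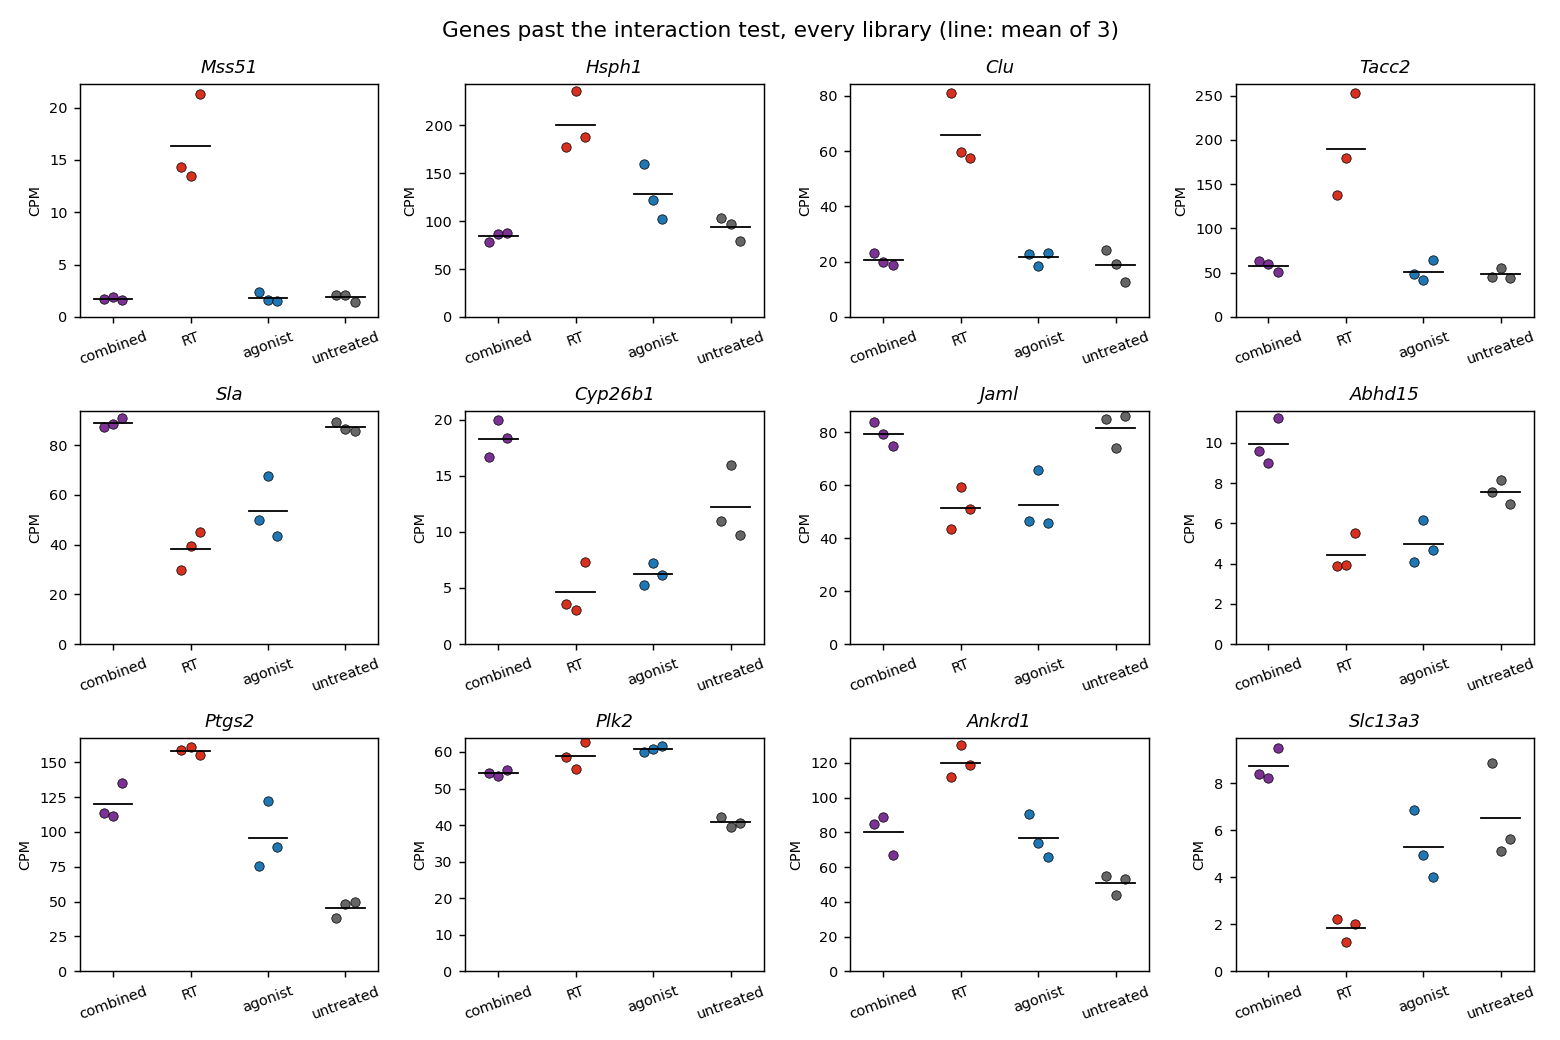
CPM of 12 genes past the interaction test in every library, with groups in the order combined, RT, agonist and untreated on the x axis; dots are libraries and lines are means of 3. In Mss51, Clu and Tacc2 the RT dots lie far above overlapping dots of the other groups, in Hsph1 the RT dots are highest and the agonist dots next by mean, in Sla and Jaml both single-treatment groups are low, and in Ptgs2, Plk2 and Ankrd1 the untreated dots are lowest.

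Slc13a3, a sodium-dependent dicarboxylate carrier, was the gene for which RT tumours were lower than every other group by test. It was at 8.41, 8.22 and 9.52 CPM in combined, 2.22, 1.24 and 2.02 CPM in RT, 6.85, 4.95 and 4.03 CPM in agonist and 8.87, 5.12 and 5.63 CPM in untreated tumours. RT fell below the other 9 libraries, which overlapped, and the Slc13a3 interaction was 2.56 ± 0.39 (edgeR adjusted p = 0.0311).

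In Sla and Jaml the mean was lower in each single-treatment group than in the combined and untreated groups. By the farthest mean, Sla was counted among the genes with RT apart and Jaml among those with untreated apart, neither clear of the other libraries. Sla encodes SLAP, an adaptor that dampens antigen receptor signalling in lymphocytes (chr15:66652668-66703678 on GRCm39, minus strand). It was at 87.3, 88.3 and 90.7 CPM in combined, 29.8, 39.2 and 45.02 CPM in RT, 49.99, 67.4 and 43.2 CPM in agonist and 89.2, 86.5 and 85.5 CPM in untreated tumours. Combined and untreated libraries overlapped, and both lay above all 6 others. The interaction was 1.92 ± 0.23 (edgeR adjusted p = 0.0154). The product of the single changes would give 23.4 CPM in the combined group, against a measured 88.8 CPM. RT tumours differed from untreated ones by -1.195 (adjusted p = 0.00157), whereas agonist and untreated tumours differed by -0.70 (log2) without passing the test (0.495).

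Jaml, whose promoter is printed above, was at 83.9, 79.2 and 74.9 CPM in combined, 43.4, 59.3 and 51.1 CPM in RT, 46.4, 65.6 and 45.8 CPM in agonist and 85.1, 74.1 and 86.0 CPM in untreated tumours. Its interaction was 1.27 ± 0.21 (adjusted p = 0.0419 by edgeR), and combined and untreated tumours differed by -0.04. RT tumours differed from untreated ones by -0.67 (adjusted p = 0.0144), and agonist tumours by -0.64 without passing the test (0.527). For neither gene did the combined mean exceed the untreated mean by test (Sla 0.03, adjusted p = 0.942; Jaml adjusted p = 0.898).

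In Cyp26b1 and Abhd15 the combined group stood apart by the farthest mean, but both single-treatment means were also below the untreated mean, as in Sla and Jaml. By edgeR, RT and untreated tumours differed by -1.39 in Cyp26b1 (adjusted p = 0.0128) and by -0.77 in Abhd15 (0.0268). Agonist and untreated tumours differed by -0.97 and -0.60 without passing the test (0.732 and 0.827). Cyp26b1 (chr6:84548396-84570890 on GRCm39, minus strand) was at 16.7, 19.9 and 18.3 CPM in combined, 3.57, 3.03 and 7.35 CPM in RT, 5.26, 7.26 and 6.18 CPM in agonist and 10.97, 16.0 and 9.75 CPM in untreated tumours. The combined libraries were the highest 3, and the untreated ones came next. The interaction was 2.95 ± 0.42 (edgeR adjusted p = 0.0311), combined exceeded RT by 1.98 (adjusted p = 0.00809) and agonist by 1.55 (0.0392), and combined and untreated differed by 0.58 without passing (0.25). Abhd15, a hydrolase-domain protein known from adipocyte insulin signalling, was at 9.61, 9.03 and 11.2 CPM in combined, 3.86, 3.95 and 5.51 CPM in RT, 4.10, 6.16 and 4.70 CPM in agonist and 7.55, 8.13 and 6.97 CPM in untreated tumours. Its interaction was 1.76 ± 0.27 (adjusted p = 0.0311), and again combined and untreated tumours did not differ by test (0.40, adjusted p = 0.231).

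For 3 called genes all untreated libraries were below the other 9, as in 1.95% of all genes, and the treatments gave less together than their single changes imply. Ptgs2, the inducible cyclooxygenase COX-2 of prostaglandin synthesis, was at 113, 111 and 135 CPM in combined, 158, 161 and 155 CPM in RT, 75.8, 122 and 89.3 CPM in agonist and 38.0, 48.4 and 49.6 CPM in untreated tumours. All treated libraries exceeded the untreated ones, and RT was highest. The product of the single changes would be 334 CPM, and even their sum, 209 CPM, was above the measured 119.9 CPM; the Ptgs2 interaction was -1.48 ± 0.23 (edgeR adjusted p = 0.0311). Plk2, a polo-like kinase and p53 target, was at 54.3, 53.4 and 55.0 CPM in combined, 58.6, 55.2 and 62.7 CPM in RT, 59.9, 60.9 and 61.8 CPM in agonist and 42.3, 39.5 and 40.5 CPM in untreated tumours. The 3 treated groups were close to one another and clear of the untreated one, and the interaction was -0.70 ± 0.11. Ankrd1, a stress-induced ankyrin repeat protein of muscle and a YAP target, averaged 80.2 CPM in combined, 120.2 CPM in RT, 76.8 CPM in agonist and 50.6 CPM in untreated tumours, and its interaction was -1.18 ± 0.20. RT exceeded each other group in Ankrd1, so it also met the RT-alone rule.

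At an adjusted p under 0.1 in every test, 13 genes met the synergy rule, 12 with combined tumours higher. At that threshold 187 genes (1.05%) had an interaction, 60 above 0 (0.338%) and 127 below 0 (0.715%), and 122 met the RT-alone rule, 99 with RT higher. The 13 fall outside the rule by which genes were otherwise named and were picked for these values. They are Ppfia4, Ntpcr, Cd79b, Spn, Arl11, Gpr18, Dok3, Tifab, Serinc3, Sh2d1b1, Naip2 and Arhgap27, all higher, and mt-Nd4, a mitochondrially encoded subunit of complex I, lower. Several are known from leukocytes: Spn is the sialoglycoprotein CD43, Cd79b a chain of the B cell receptor, Dok3 an inhibitory adaptor of myeloid and B cells, Gpr18 a receptor of lymphocytes, and Sh2d1b1 an adaptor (EAT-2) of NK cells. Naip2 is an inflammasome sensor of bacterial proteins with close paralogues, among which reads may be shared.

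In all 13 the combined libraries were outside the range of the other 9, a pattern that 7.38% of all genes had. The 13 were chosen because combined tumours differed from each other group, so this separation was largely set by the choice. Spn was at 164, 183 and 174 CPM in combined, 69.1, 59.5 and 96.9 CPM in RT, 99.0, 119 and 94.6 CPM in agonist and 99.9, 95.7 and 116 CPM in untreated tumours. Combined was highest, RT lowest in mean, and agonist and untreated overlapped, with an interaction of 1.20 ± 0.22 (edgeR adjusted p = 0.0584). Arl11, a small GTPase of macrophages, was at 18.04, 22.1 and 21.1 CPM in combined, 11.53, 9.63 and 12.1 CPM in RT, 11.3, 10.2 and 10.6 CPM in agonist and 11.9, 10.1 and 10.98 CPM in untreated tumours. The 3 other groups overlapped and the combined libraries lay above them (0.91 ± 0.18, adjusted p = 0.0668). Sh2d1b1 was at 26.02, 22.7 and 31.6 CPM in combined, 6.66, 3.44 and 9.27 CPM in RT, 10.8, 14.9 and 9.43 CPM in agonist and 13.7, 10.4 and 8.84 CPM in untreated tumours, an interaction of 1.95 ± 0.44 (adjusted p = 0.0907).

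RT had the lowest mean in 11 of the 13 genes, but most of these differences from untreated tumours passed no test. By edgeR, RT and untreated tumours differed at an adjusted p under 0.1 in Ppfia4 (-0.71, 0.0391), Cd79b (-0.78, 0.0741) and Spn (-0.47, 0.0891), the first of which also passed at 0.05. In Dok3 the difference was -0.12 ± 0.14 and in Arl11 it was 0.01 ± 0.13. Combined tumours exceeded untreated ones by 0.44 to 1.29 in the 12 higher genes. DESeq2's 63 genes at 0.05 (60 with combined higher) held all 13, which is 20.6% of the 63. Without RT replicate 3, edgeR gave 75 genes (71 higher), of which 11 were among the 13. The 2 lists of 63 and 75 shared 37 genes (58.7% and 49.3% of each). All these lists apply the same rule to the same libraries, with or without RT replicate 3, and DESeq2 made more calls than edgeR. Their overlap is therefore not independent support. Among the 37 were Havcr2, the checkpoint receptor TIM-3, and Cxcl13, a chemokine that attracts B cells and CXCR5+ T cells. Havcr2 was at 64.4, 71.5 and 72.5 CPM in combined, 32.1, 33.2 and 47.4 CPM in RT, 32.4, 40.2 and 31.1 CPM in agonist and 36.0, 32.1 and 30.8 CPM in untreated tumours. Its interaction was 0.82 ± 0.21 (adjusted p = 0.118 by edgeR with all libraries). Cxcl13 was at 98.3, 65.5 and 83.3 CPM in combined tumours and between 8.20 and 32.3 CPM in the other 9 libraries, with an interaction of 2.07 ± 0.59 (edgeR adjusted p = 0.170).

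**Figure D3:**
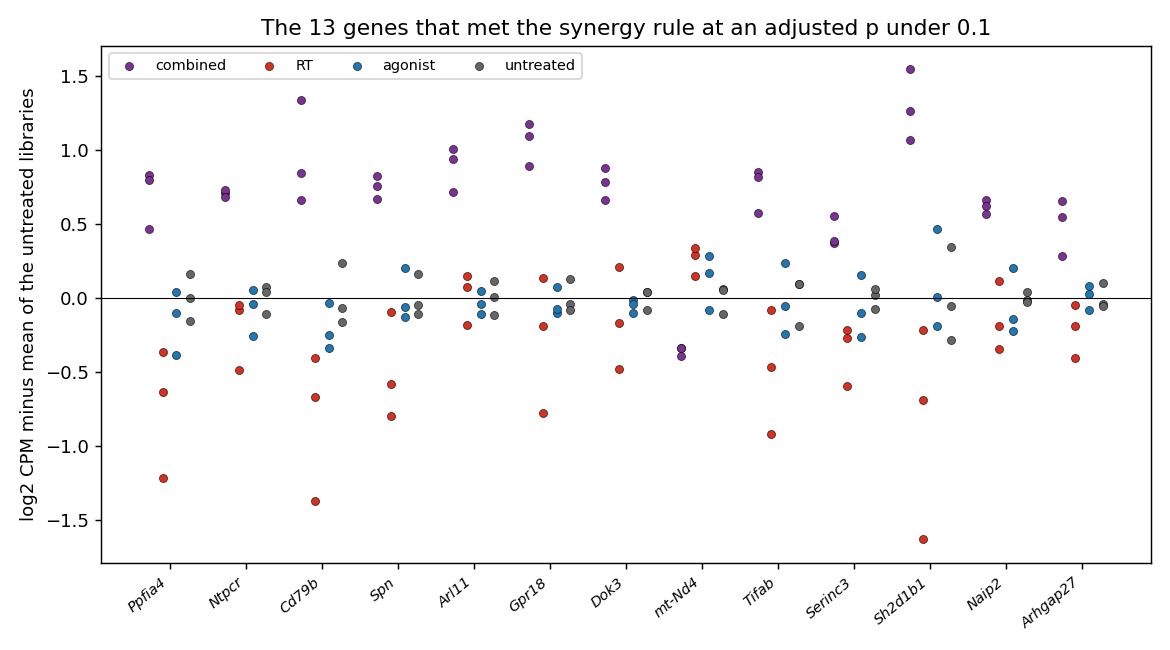
Log2 CPM in every library, less the mean of the 3 untreated libraries, for the 13 genes that met the synergy rule at an adjusted p under 0.1; each gene has combined, RT, agonist and untreated dots from left to right. Combined dots lie above all others for 12 genes and below them for mt-Nd4, and RT dots lie below 0 for most.

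Gene lists of immune and stress programmes were read by their counts and medians, since 0 to 1 member of each passed the interaction test. Over all tested genes, 49.88% of interactions were below 0, which is the background for the counts of signs. In the MHC class II list, genes that present antigen to CD4 T cells, all 11 measured members had interactions above 0, 10 with an unadjusted p under 0.05, and 0 passed the adjusted test; over all genes 6.21% had such a p above 0. The median interaction was 1.72, made of 0.40 between combined and agonist tumours and -1.32 between RT and untreated tumours. H2-DMb1, a peptide-loading chaperone, was at 61.1, 120.2 and 129.5 CPM in combined, 41.8, 12.9 and 39.5 CPM in RT, 83.9, 74.7 and 77.6 CPM in agonist and 90.6, 64.9 and 80.3 CPM in untreated tumours. RT was below the other groups and combined overlapped both agonist and untreated, with an interaction of 1.72 ± 0.56 (adjusted p = 0.216 by edgeR). The list took 0.126% of counts in RT replicate 2, against 0.312% and 0.351% in the other RT libraries. Dendritic cell genes had 7 of 20 members above 0 at an unadjusted p under 0.05, among them Cd207 (langerin), whose interaction of 2.17 ± 0.44 had an adjusted p of 0.0709.

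Macrophage and monocyte genes pointed both ways. Of 25 measured, 8 were above 0 and 2 below 0 at an unadjusted p under 0.05, and the median was 0.01. Over all genes these shares were 6.21% above 0 and 7.86% below 0. Cx3cr1, the fractalkine receptor, was at 67.4, 56.9 and 85.4 CPM in combined, 24.5, 14.7 and 35.2 CPM in RT, 87.5, 89.7 and 54.2 CPM in agonist and 79.6, 88.1 and 115 CPM in untreated tumours (interaction 1.78 ± 0.43, edgeR adjusted p = 0.114). Mertk, a receptor for the uptake of dying cells, was at 77.5, 80.0 and 78.6 CPM in combined, 30.2, 50.6 and 47.9 CPM in RT, 31.8, 60.5 and 33.7 CPM in agonist and 57.8, 55.2 and 60.5 CPM in untreated tumours (1.34 ± 0.33, adjusted p = 0.114). RT alone was low for Cx3cr1 and both single treatments were at or below untreated for Mertk in mean, while Spp1, osteopontin, was high with RT alone at 206, 252 and 137 CPM against 90.2 to 124 CPM in the other 9 libraries (-1.19 ± 0.26, adjusted p = 0.0883).

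Mast cell and eosinophil genes had a median interaction of 1.54, with 9 of 15 members above 0 at an unadjusted p under 0.05 (6.21% of all genes were) and 0 past the adjusted test. Fcer1a, a chain of the IgE receptor, was at 3.72, 4.66 and 4.48 CPM in combined, 1.82, 1.07 and 2.24 CPM in RT, 1.69, 1.56 and 1.91 CPM in agonist and 5.45, 4.07 and 1.56 CPM in untreated tumours (2.42 ± 0.54, edgeR adjusted p = 0.0888). Untreated replicate 3 was at the level of the single treatments. T cell genes had a median of 0.53, with 23 of 25 above 0, 4 of them at an unadjusted p under 0.05 (6.21% of all genes were) and 0 called. Cd8a, the CD8 coreceptor of cytotoxic T cells, was at 18.2, 21.6 and 28.0 CPM in combined, 11.1, 4.34 and 10.5 CPM in RT, 16.1, 18.1 and 19.3 CPM in agonist and 19.6, 11.1 and 18.9 CPM in untreated tumours. RT was lowest by mean and the Cd8a interaction was 1.29 ± 0.45 (adjusted p = 0.230). Cd4 had an interaction of 0.83 ± 0.32 and Cd6, a T cell coreceptor, of 1.00 ± 0.34, neither past the test.

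Cytotoxic effectors did not lean as a list: of 25 measured, 14 interactions were above 0 and 11 below 0, with a median of 0.09. At an unadjusted p under 0.05, 5 were below 0 (7.86% of all genes were) and 0 above 0, and 0 were called. The granzymes Gzmc, Gzmd and Gzme, serine proteases of cytotoxic granules encoded in a cluster of near-identical copies, had the smallest p-values. Gzmc was at 31.0, 33.9 and 28.5 CPM in combined, 62.7, 57.5 and 41.6 CPM in RT, 15.9, 21.96 and 18.7 CPM in agonist and 8.93, 10.6 and 4.64 CPM in untreated tumours. The 4 groups did not overlap, with RT highest, and the interaction was -2.02 ± 0.36 (edgeR adjusted p = 0.0553). For Gzmd and Gzme the interactions were -2.89 ± 0.64 (0.0971) and -2.82 ± 0.62 (0.0888), and reads may be shared among these copies. Gzmb was at 66.1, 109.9 and 68.2 CPM in combined, 75.3, 53.7 and 71.3 CPM in RT, 23.1, 49.4 and 29.4 CPM in agonist and 25.4, 14.2 and 24.2 CPM in untreated tumours, and its interaction of -0.39 ± 0.45 (0.761) was smaller than its error.

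Of 32 type I interferon genes, 17 rose in combined over agonist tumours (0.822% of all genes did) and 30 rose in RT over untreated tumours (6.57% of all genes), and 0 had an interaction by test, with 1 at an unadjusted p under 0.05. The medians were 0.92 and 1.07, and the median interaction was -0.22, with 28 of 32 interactions (87.5%) below 0, against 49.88% of all genes. Rsad2, the antiviral enzyme viperin, was at 170.1, 242 and 133 CPM in combined, 188, 204 and 192 CPM in RT, 59.8, 103 and 78.6 CPM in agonist and 44.0, 45.6 and 64.3 CPM in untreated tumours. Its interaction was -0.75 ± 0.33 (edgeR adjusted p = 0.338). Of 24 cholesterol synthesis genes, 8 fell in combined over agonist tumours (0.124% of all genes) and 17 in RT over untreated tumours (3.05%), and the medians were -0.90 and -0.98. Lss, lanosterol synthase, was at 22.9, 22.3 and 25.4 CPM in combined, 22.5, 26.7 and 22.4 CPM in RT, 43.2, 30.7 and 36.2 CPM in agonist and 47.7, 48.1 and 42.2 CPM in untreated tumours, an interaction of 0.30 ± 0.18 (0.490).

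Of 30 p53 targets, 3 rose in combined over agonist tumours (0.822% of all genes did) and 10 in RT over untreated tumours (6.57%). An interaction by test was found for 1, Plk2 (0.152% of all genes). Cdkn1a, the cell cycle inhibitor p21, was at 137, 157 and 116 CPM in combined, 148, 112 and 144 CPM in RT, 55.5, 60.1 and 61.5 CPM in agonist and 36.9, 47.4 and 41.3 CPM in untreated tumours. The irradiated groups overlapped and lay above both others, and the Cdkn1a interaction was -0.47 ± 0.19 (edgeR adjusted p = 0.297). Ccng1, cyclin G1, was at 158, 149 and 150.1 CPM in combined, 211, 215 and 250.5 CPM in RT, 114, 135 and 117 CPM in agonist and 128, 115 and 107 CPM in untreated tumours, and fell just short of the looser threshold (-0.62 ± 0.15, adjusted p = 0.1002). Tnfrsf10b, a TRAIL receptor, was at 36.9, 43.5 and 35.2 CPM in RT tumours and between 23.6 and 31.4 CPM in the other 9 libraries (interaction -0.79 ± 0.15, adjusted p = 0.0668).

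**Figure D4:**
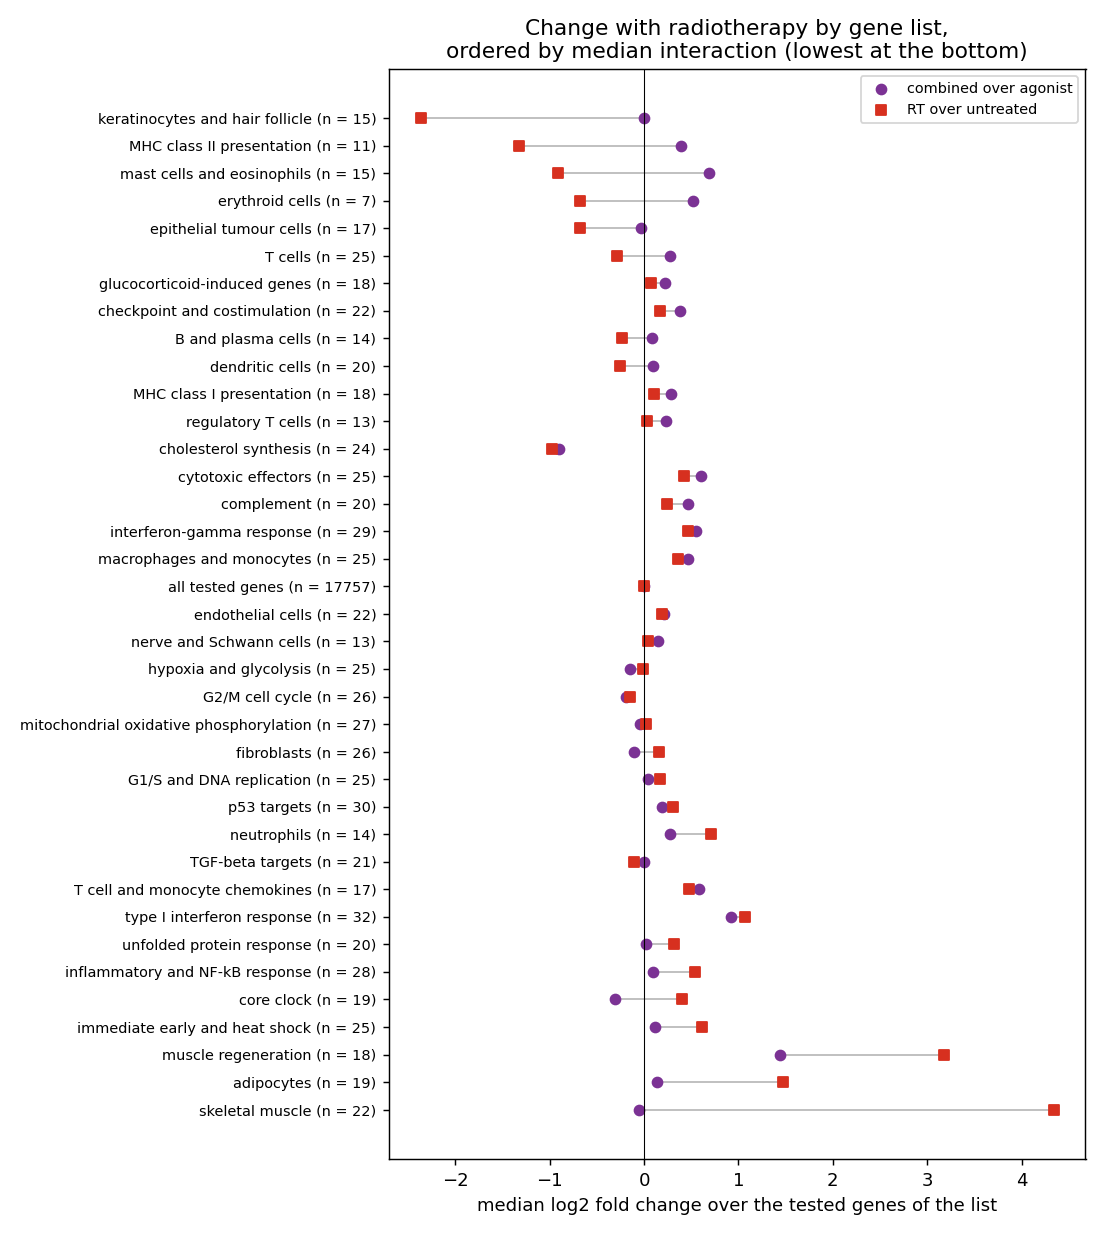
Median log2 fold change over the measured genes of each list, for combined over agonist tumours (circles) and RT over untreated tumours (squares), with lists ordered by median interaction. Circles and squares nearly coincide for cholesterol synthesis and the interferon lists, and lie far apart for skeletal muscle (-0.05 and 4.34) and MHC class II presentation (0.40 and -1.32).

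In the immediate early and heat shock list, 22 of 25 interactions were below 0, 14 of them at an unadjusted p under 0.05 (7.86% of all genes were), and 1, Hsph1, passed the adjusted test; the median was -0.61. Egr1, an immediate early transcription factor, was at 59.4, 79.4 and 68.7 CPM in combined, 83.5, 60.5 and 71.7 CPM in RT, 38.5, 53.7 and 44.9 CPM in agonist and 20.6, 21.6 and 26.1 CPM in untreated tumours (-1.06 ± 0.22, edgeR adjusted p = 0.0778). The irradiated groups overlapped and the agonist group lay between them and the untreated one. Ier3, an early response gene, was at 34.7, 32.8 and 29.9 CPM in combined, 57.4, 42.1 and 36.5 CPM in RT, 57.6, 39.0 and 38.0 CPM in agonist and 21.6, 26.8 and 27.3 CPM in untreated tumours (-1.31 ± 0.27, adjusted p = 0.0723). In the inflammatory list, 8 of 28 were below 0 at an unadjusted p under 0.05 and 1, Ptgs2, was called. The unfolded protein response list had 7 of 20 at that level, none past the adjusted test, with Asns, asparagine synthetase, highest with RT alone (-0.85 ± 0.19, adjusted p = 0.0883). The monocyte chemokine Ccl2 was at 70.3, 92.8 and 62.5 CPM in combined, 109.9, 71.5 and 90.7 CPM in RT, 42.8, 49.5 and 45.8 CPM in agonist and 26.1, 26.3 and 32.9 CPM in untreated tumours (-0.97 ± 0.24, adjusted p = 0.114).

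Core clock genes had 17 of 19 interactions below 0, 9 of them at an unadjusted p under 0.05 (7.86% of all genes were) and 0 called, with a median of -0.54. Bhlhe40, a repressor of clock transcription, was at 76.3, 80.6 and 65.8 CPM in combined, 138, 124 and 97.9 CPM in RT, 124, 119 and 113 CPM in agonist and 65.4, 93.6 and 114 CPM in untreated tumours (-1.08 ± 0.25, edgeR adjusted p = 0.0967). Per1, a clock and glucocorticoid-responsive gene, was at 34.1, 32.7 and 33.7 CPM in combined, 42.7, 66.2 and 54.5 CPM in RT, 46.6, 49.5 and 35.6 CPM in agonist and 134, 135 and 104 CPM in untreated tumours. All treated libraries were below the untreated ones, and the Per1 interaction was above 0, at 0.80 ± 0.23 (edgeR adjusted p = 0.155). Of 18 muscle regeneration genes, 2 rose in combined over agonist (0.822% of all genes) and 14 in RT over untreated tumours (6.57%), with medians of 1.44 and 3.18, and Ankrd1 was its 1 called interaction. Keratinocyte and hair follicle genes had a median interaction of 2.69 with none at an unadjusted p under 0.05: untreated replicate 2 held 0.0817% of its counts in them, against at most 0.00776% in any other library. The cell cycle and mitochondrial lists had medians between -0.11 and -0.06, and the endothelial and fibroblast lists of -0.01 and -0.08.

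The target and receptor of the agonist showed no interaction by test. Fap was at 10.4, 5.92 and 6.75 CPM in combined, 14.8, 10.6 and 17.1 CPM in RT, 5.74, 7.67 and 18.9 CPM in agonist and 4.77, 8.37 and 10.3 CPM in untreated tumours. The groups overlapped, and its interaction was -1.34 ± 0.62 (edgeR adjusted p = 0.364). Tnfrsf9 was at 25.4, 33.8 and 32.03 CPM in combined, 36.2, 27.5 and 29.4 CPM in RT, 27.5, 34.2 and 36.9 CPM in agonist and 20.5, 20.6 and 24.3 CPM in untreated tumours, so every treated library was above the untreated ones (-0.62 ± 0.21, adjusted p = 0.213). For Tnfsf9 the interaction was -0.40 ± 0.21. Ifng (0.09 ± 0.68), Foxp3, the transcription factor of regulatory T cells (0.06 ± 0.43), Cd274, which encodes PD-L1 (0.23 ± 0.46), and Mki67, a proliferation marker (0.21 ± 0.32), had interactions smaller than their errors. Cd274 was highest in the combined group at 149, 276 and 212 CPM, against 132, 64.4 and 145 CPM in RT, 93.6, 149 and 103 CPM in agonist and 66.1, 59.4 and 91.1 CPM in untreated tumours. The SE of an interaction had a median of 0.24 (log2) over all genes.

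**Figure D5:**
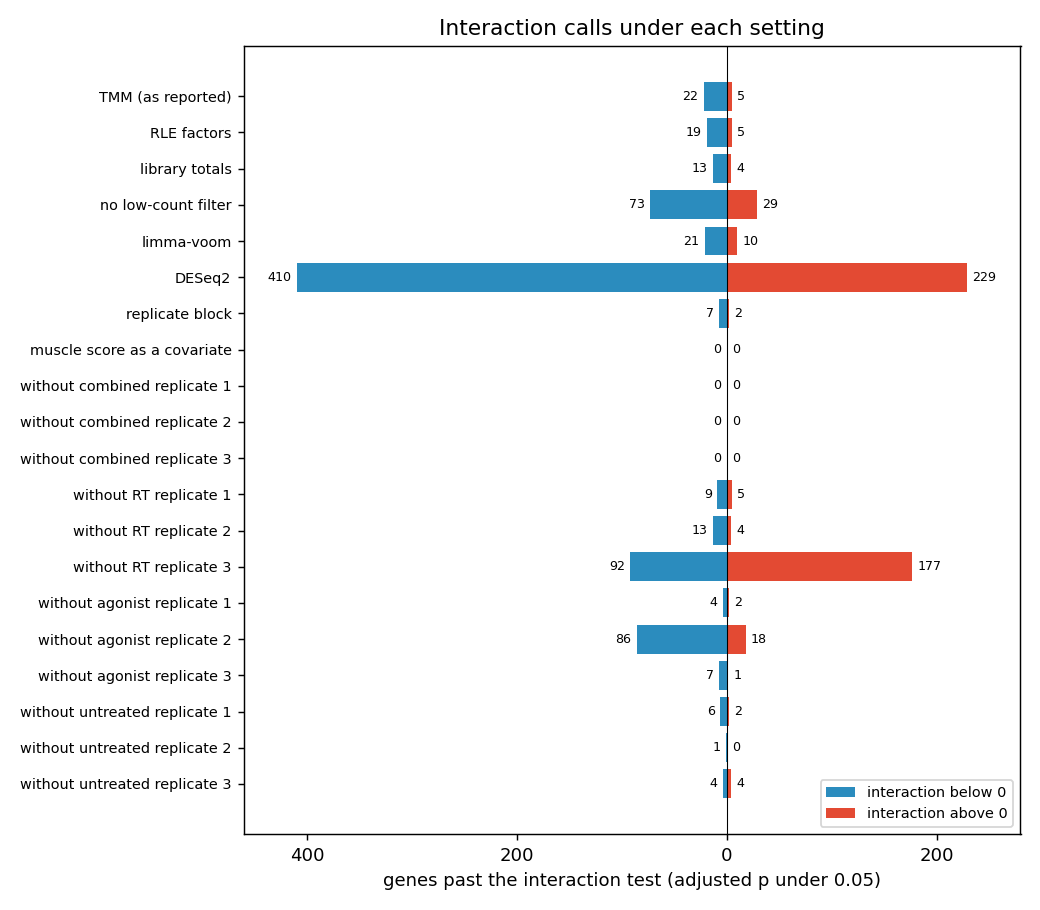
Number of genes past the interaction test under each setting, with interactions below 0 to the left and above 0 to the right of the centre line. DESeq2 (639 in all) and the fit without RT replicate 3 (269) made the most calls, and the fits without a combined library or with the muscle score made 0.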

How the data were processed

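Whole-tumour RNA was measured in 12 libraries as counts per gene. Per the file headers, the deposited counts came from featureCounts 1.6.0 on exons by gene with GENCODE M33, reverse-stranded and paired. Per the submitters' processing notes, FastQC 0.11.8, STAR 2.7.9a and GRCm39 were used. The 56884 genes were named from a gene table by ID (91.3% matched). Genes past filterByExpr were scaled by TMM and fitted in one model over 4 groups with edgeR 4.0.16 (quasi-likelihood, robust, 8 residual degrees of freedom) in R 4.3.3; p-values were adjusted over 17757 genes. Per-library CPM used TMM, and group patterns log2 CPM with a prior count of 2. Intervals and errors cover the spread between libraries.

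Alternatives were DESeq2 1.42.0, limma-voom 3.58.1, other scalings and filters, and each library left out. The code was tested on simulated data. Named genes were the largest interactions past the threshold with mean log2 CPM of at least 1, those with the smallest p per pattern and list, and a fixed panel; 13 genes at the looser threshold were chosen after their values were seen. The members and lists were chosen with earlier results of these data known. Predicted, ribosomal, mitochondrial and receptor segment genes were not named, except mt-Nd4.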

Additional observations from a re-analysis of the deposited data

Results flagged for a closer look

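The change between combined and agonist tumours differed from that between RT and untreated tumours, by edgeR's test of the interaction itself, for 27 genes, given here as log2 interactions. Above 0 were Sla 1.92, Cyp26b1 2.95, Slc13a3 2.56, Abhd15 1.76 and Jaml 1.27. Below 0, with RT tumours apart from the rest, were Mss51 -3.22, Hsph1 -1.70, Igfn1 -6.65, Rasd2 -3.98, Myl3 -8.13, Tspan8 -3.13, Ankrd23 -1.79, Hspb6 -1.81, Tceal5 -3.67, Clu -1.89, Cfl2 -0.89, Fndc5 -3.90, Camk2a -2.66, Pkia -2.58, Lrrc30 -3.25, Prkab2 -0.89, Tpm1 -0.94, Kng2 -2.39 and Tacc2 -1.79. Also below 0, with untreated tumours apart, were Ptgs2 -1.48, Plk2 -0.70 and Ankrd1 -1.18. The test for a library far from its group was not applied to groups of 3.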

How the results depend on the processing

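The number of interactions depended on the fit, and the causes of these shifts were not tested. Of 27 genes called (5 higher, 22 lower, RT apart in 21, combined apart in 2, RT alone by tests 20, synergy 0), library totals as the scaling gave 17, with 13 lower and RT alone in 12. No low-count filter gave 102 (29 higher, 73 lower; RT apart in 80, combined in 10; RT alone in 63, synergy in 6). DESeq2 gave 639 (229 higher, 410 lower; RT apart in 449, combined in 116; RT alone in 324, synergy in 63). limma-voom gave 31, with 10 higher, combined apart in 5 and synergy in 2. With the muscle score as a covariate all were 0, and that score largely followed the RT group. An adjusted p under 0.1 gave 187 (60 higher, 127 lower; RT apart in 142, combined in 23; RT alone in 122, synergy in 13). RLE factors and the omission of muscle-linked genes each gave 24. Leaving out each library gave 0 to 269 called, 0 to 177 higher, 0 to 92 lower, RT apart in 0 to 176, combined apart in 0 to 84, RT alone in 0 to 114 and synergy in 0 to 75. The direction of all 27 genes held under each setting run, and each lost the threshold in some. The median interaction moved by at most 0.01 with scaling.

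Replicate numbers did not pair the libraries across all groups: 6 of 18 same-numbered pairs had correlated deviations over 0.1, and the 18 ranged from -0.34 to 0.43. Differently numbered pairs had a like range, from -0.47 to 0.42. All 3 pairs of RT and agonist libraries were over 0.1 (0.31, 0.18 and 0.43), which that range also holds or nearly reaches. With the replicate block 9 genes were called (2 higher, 7 lower; RT apart in 7, combined in 0; RT alone in 7); Cyp26b1 and Abhd15, the genes with combined apart, had adjusted p-values of 0.0609 and 0.0644. At 34076477 or more counts per library, genes such as Myl3 with a few counts outside the RT group are limited by depth.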
